A study of Peromyscus californicus with 17 samples.

Results

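The genes described here make or receive the main vasoactive signals of the vessel wall: the peptide endothelin-1 (Edn1), its receptors (Ednra and Ednrb), the nitric oxide synthases (Nos1, Nos2 and Nos3), prostacyclin synthase (Ptgis) and angiotensin-converting enzyme (Ace). They were picked by symbol for their roles, with earlier results of these data known, by a rule that itself uses no measured value. Of the 8 symbols, 7 were found among the 27786 genes of the expression table, and Ace was not analysed here. The values come from lung RNA of 17 male Peromyscus californicus, a monogamous deer mouse, 12–15 months old and of genetically diverse stock, with 1 library per animal. The 6 bonded males (B1 to B6) had lived with a mate for about 4 months. The 6 bond-disrupted males (BD1 to BD6) had been paired for as long and then separated from the mate, and their lungs were taken 7 days later. The 5 virgin males (V2 to V6) were of similar age, had no mate and were housed in groups. The study compared these groups to ask whether bonding history leaves a mark on the lung transcriptome, and for the genes above the question is whether any of them differed between the groups.

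Endothelin-1 is made by endothelium and epithelium and is a strong constrictor of vessels and airways. It acts through the type A receptor, which contracts smooth muscle, and through the type B receptor, which on endothelium triggers the release of nitric oxide and prostacyclin and removes endothelin-1 from the blood, a task in which the lung has a large share. Nitric oxide, made from arginine, and prostacyclin, made from prostaglandin H2, are the opposing relaxing signals, and the lung is also the main site at which angiotensin is activated.

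The deposited values are FPKM, in which the fragments of a gene are divided by its length in kilobases and by the size of the library in units of 1000000 fragments. Within the table each column had been divided by the length of another gene: the gene 1 row above in the first column, and 1 row further up in each later column. The 7 genes were therefore divided by lengths that had nothing to do with them. Edn1, whose own length was solved as 2628 bases, had been divided by lengths between 102 and 21177 bases, and Ednrb, of 4196 bases, by lengths between 102 and 15170. As deposited, Ednrb ran from 33.6 FPKM in BD4 to 4777 in V5, Edn1 from 1.09 in BD1 to 389 in V2, and Nos2 from 1.53 in BD4 to 380 in B2. After the wrong length was replaced by the gene's own, the same values ran from 72.9 to 152 for Ednrb, from 8.76 to 27.9 for Edn1 and from 2.74 to 11.9 for Nos2. The standard deviation of log2(FPKM + 1) over the 17 animals fell from 2.36 to 0.277 for Ednrb, from 2.34 to 0.424 for Ptgis, from 1.78 to 0.279 for Ednra, from 1.79 to 0.397 for Edn1 and from 2.09 to 0.538 for Nos2. Nos3, whose divisors spanned only 892 to 4573 bases around its own 4058, changed least, from 0.563 to 0.433. All levels below are FPKM by own length.

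**Figure D1:**
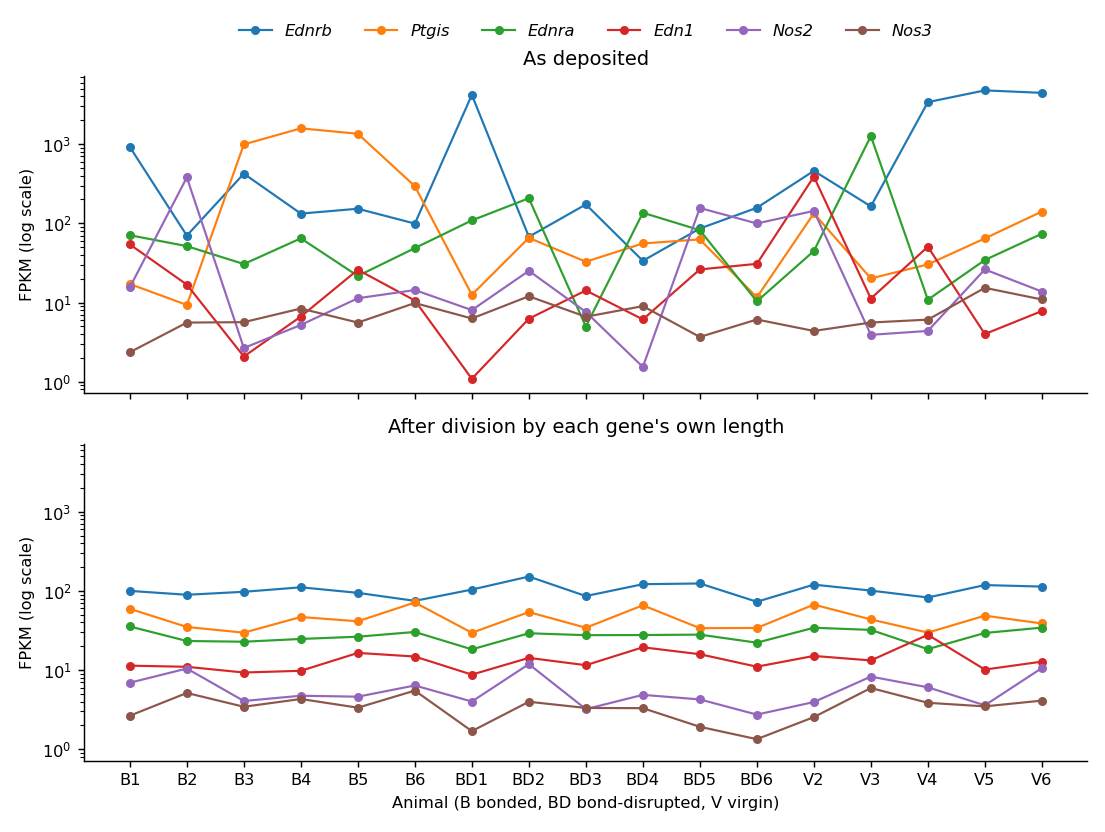
FPKM (log axis) of 6 genes in each of the 17 animals, as deposited (top) and by each gene's own length (bottom), with Nos1 left out because of its low level. The lines, which only join the points of a gene, cross throughout the upper panel, where Ednrb runs from 33.6 to 4777 FPKM, and keep nearly the same order in every animal of the lower panel, where it runs from 72.9 to 152.

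In units of 1000000 fragments, the libraries held 15.4 to 34.1, with medians of 18.4 in bonded, 23.2 in bond-disrupted and 21.9 in virgin males. The tissue was lung by its markers: Sftpc, the surfactant protein of type 2 alveolar cells, averaged 19872 FPKM, Ager of type 1 cells 1642 and the endothelial gene Pecam1 203, and all 10 endothelial markers averaged at least 1 FPKM. One library stood apart. BD6 had the lowest sums of endothelial (770 FPKM), smooth muscle (350) and fibroblast (895) markers, the highest sums of type 2 alveolar (34191) and macrophage (331) markers, and a sum of 7 neuronal markers of 45.1 FPKM against 1.89 to 4.76 in the other animals. B6 had the highest sums of smooth muscle (1335 FPKM) and cardiac muscle (547) markers, and BD2 had the lowest sums of macrophage (63.3) and erythroid (1.04) markers. These are bulk libraries, in which fewer cells of a type and less RNA per cell cannot be told apart.

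From the highest to the lowest, the 7 genes spanned a far wider range than any of them did between groups, though some neighbouring genes lay close. Ednrb averaged 103.7 FPKM over the 17 animals, rank 573 of the 24766 genes with all values recovered. It was followed by Ptgis at 44.9, Ednra at 27.3, Edn1 at 13.7, Nos2 at 5.92, Nos3 at 3.52 and Nos1 at 0.0655. Ednrb exceeded Ptgis and Ptgis exceeded Ednra in 17 of 17 animals, although the lowest Ednrb (72.9, in BD6) lay just above the highest Ptgis (71.4, in B6). Ednra exceeded Edn1 in 16 of 17 animals, the exception being V4. Edn1 exceeded Nos2 in 17 of 17 animals, Nos2 exceeded Nos3 in 16 of 17, the exception being BD3, and Nos3 exceeded Nos1 in 17 of 17. In the geometric mean Ednrb was 2.37 times Ptgis, Ptgis 1.60 times Ednra, Ednra 2.05 times Edn1, Edn1 2.43 times Nos2, Nos2 1.64 times Nos3 and Nos3 62.4 times Nos1. The order was thus nearly the same from animal to animal, while the ranges of neighbouring genes overlapped for Ptgis and Ednra, Ednra and Edn1, Edn1 and Nos2, and Nos2 and Nos3.

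**Figure D2:**
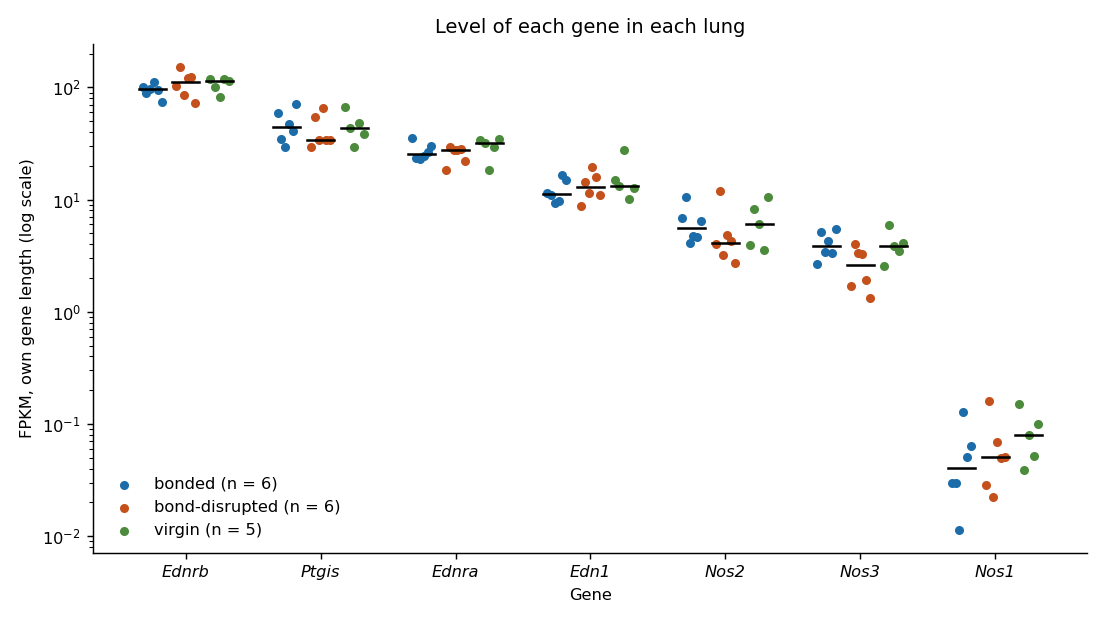
FPKM by own length (log axis) of 7 genes in each lung, with a point per animal, colours for the 3 groups and a black bar at each group's median. Ednrb is highest at 72.9 to 152 FPKM, Nos1 is below 0.16 in every animal, and the 3 groups overlap for each gene.

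Group differences were tested with limma on log2(FPKM + 1) for 15437 genes, and a gene was called where its p, adjusted by Benjamini-Hochberg over all genes, was under 0.1 and its change at least 2-fold. No gene of the 7 was called in any comparison. Across all genes 0 were called in bond-disrupted against bonded, virgin against bonded and virgin against bond-disrupted males, which is 0% in each. At an unadjusted p under 0.05 with no fold minimum there were 911, 588 and 673 genes, or 5.9%, 3.81% and 4.36%, and of the 6 genes tested this held for Nos3 in the first and the last of these comparisons and for no other. A count model on the recovered fragments (limma's voom) called 0, 2 and 0 genes, none of them among the 7. With the family number of the animals as a block the counts were 0, 1 and 0. As deposited, with the wrong lengths left in, 40, 113 and 35 of 18602 genes were called, which is 0.215%, 0.607% and 0.188%, again with none of the 7.

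The ligand, Edn1, was measured at 9.31, 11.2 and 16.5 FPKM as the lowest, median and highest of the bonded males and at 8.76, 12.9 and 19.4 of the bond-disrupted males. The virgins had 15.1 (V2), 13.2 (V3), 27.9 (V4), 10.1 (V5) and 12.8 FPKM (V6). V4 had the highest Edn1 of all animals and BD4 (19.4 FPKM) the next, above every bonded male and every other virgin, and the 3 groups overlapped. The means were 12.1 ± 2.88 (SD, n = 6) in bonded, 13.5 ± 3.83 (n = 6) in bond-disrupted and 15.8 ± 6.97 FPKM (n = 5) in virgin males. On the log2(FPKM + 1) scale the change was 0.13 (SE 0.22; limma adjusted p = 0.955) in bond-disrupted against bonded, 0.30 (SE 0.23; limma adjusted p = 1) in virgin against bonded and 0.18 (SE 0.23; limma adjusted p = 0.953) in virgin against bond-disrupted males. Without single animals the change in bond-disrupted against bonded males ran from 0.02 (without BD4) to 0.23 (without BD1), and that in virgin against bonded males from 0.09 (without V4) to 0.43 (without V5). That in virgin against bond-disrupted males ran from -0.04 (without V4) to 0.31 (without V5), and was 0.07 without BD1 and 0.29 without BD4. With an additive removal of the length effect the change in virgin against bonded males was 0.08.

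Ednra, the receptor that contracts smooth muscle, had a lowest, median and highest value of 22.8, 25.6 and 35.5 FPKM in bonded and of 18.3, 27.6 and 29.2 in bond-disrupted males. The virgins had 34.2 (V2), 32.2 (V3), 18.4 (V4), 29.4 (V5) and 34.4 FPKM (V6). Of the virgins, 4 lay above the highest bond-disrupted male and V4 lay near the lowest, so that the groups overlapped. The means were 27.2 ± 4.90, 25.5 ± 4.30 and 29.7 ± 6.64 FPKM (SD; n = 6, 6 and 5), and the largest of the 3 changes was 0.20 (SE 0.17; limma adjusted p = 0.951) for virgin against bond-disrupted males. Without single animals it ran from 0.11 without BD1 (95% interval -0.23 to 0.45) to 0.36 without V4 (95% interval 0.06 to 0.65; limma adjusted p = 0.930).

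Ednrb, the receptor that clears endothelin-1 and releases nitric oxide and prostacyclin, ranged from 74.8 over a median of 95.9 to 111 FPKM in bonded males and from 72.9 over 113 to 152 in bond-disrupted males. The virgins had 120 (V2), 101 (V3), 82.5 (V4), 118 (V5) and 113 FPKM (V6). Bond-disrupted males held both the highest value, in BD2, and the lowest, in BD6, and enclosed the range of the other groups. The means were 94.5 ± 12.04, 110 ± 28.5 and 107 ± 15.6 FPKM. The change was 0.19 (SE 0.16; 95% interval -0.14 to 0.51; limma adjusted p = 0.881) in bond-disrupted against bonded and 0.17 (SE 0.16; 95% interval -0.17 to 0.52; limma adjusted p = 1) in virgin against bonded males. Leaving out BD6, the library poor in endothelial markers, raised the former to 0.30, and leaving out BD2 lowered it to 0.09, or B6 to 0.12. With an additive removal of the length effect it was 0.08. The change in virgin against bonded males was 0.11 without B6 and 0.26 without V4. None of these was called.

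The balance of the receptors within an animal, the ratio of Ednrb to Ednra by FPKM, ran from 2.47 to 4.49 (median 3.71) in bonded and from 3.12 to 5.69 (median 4.41) in bond-disrupted males, and the virgins had 3.51, 3.14, 4.49, 4.03 and 3.30. Ednrb was the higher in every animal, and the ranges overlapped. The log2 ratio was higher by 0.28 in bond-disrupted than in bonded males (exact permutation p = 0.193; adjusted over 6 ratio tests 0.593), and by 0.18 (without B6) to 0.37 (without BD3) when single animals were left out.

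Nos3, the endothelial nitric oxide synthase, gave the largest differences on the log2(FPKM + 1) scale among the 6 genes tested. It lay at 2.65, 3.88 and 5.50 FPKM as the lowest, median and highest of the bonded males and at 1.34, 2.61 and 3.98 of the bond-disrupted males, and the virgins had 2.55 (V2), 5.93 (V3), 3.86 (V4), 3.48 (V5) and 4.11 FPKM (V6). The 3 lowest values of the 17 were the bond-disrupted males BD6 (1.34), BD1 (1.69) and BD5 (1.92), while the other bond-disrupted males lay within the range of the bonded and virgin animals. The means were 4.07 ± 1.11 FPKM (SD, n = 6) in bonded, 2.59 ± 1.08 (n = 6) in bond-disrupted and 3.99 ± 1.24 (n = 5) in virgin males. On the log2(FPKM + 1) scale Nos3 differed by -0.52 (SE 0.21; 95% interval -0.96 to -0.09) in bond-disrupted against bonded and by 0.49 (SE 0.22; 95% interval 0.04 to 0.95) in virgin against bond-disrupted males, and these were the only 2 of the 18 intervals for the 6 genes that did not hold 0. Neither passed the adjustment over all genes (limma adjusted p = 0.820 and 0.951). Exact permutation of the animals as unrelated gave two-sided p = 0.0411 and 0.0779 without adjustment, the smallest of the 18 such values. The bonded and bond-disrupted males of the same number are siblings, and Nos3 was lower in the bond-disrupted sibling in 6 of 6 pairs, by 0.04 to 1.47 on the log2(FPKM + 1) scale. An exact sign-flip permutation over these pairs gave p = 0.0312 without adjustment, which is the smallest that 6 pairs allow. The other 5 genes tested were lower in 2 to 4 of the 6 pairs (exact permutation p of 0.188 or more). With the family as a block, the change of Nos3 was again -0.52 in bond-disrupted against bonded (95% interval -0.96 to -0.08; limma adjusted p = 0.857) and was 0.41 in virgin against bond-disrupted males (95% interval -0.06 to 0.88; limma adjusted p = 0.984). Virgin and bonded males differed by -0.03 (SE 0.22).

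The Nos3 difference kept its sign without any single animal, running from -0.63 to -0.41 in bond-disrupted against bonded and from 0.37 to 0.61 in virgin against bond-disrupted males. Whether the interval held 0 depended on the animals and on the removal of the length effect. In bond-disrupted against bonded males it held 0 without B6, BD1 or BD6, and the change was smallest without BD6, at -0.41 (95% interval -0.84 to 0.02). In virgin against bond-disrupted males it held 0 without BD1, BD5, BD6, V3, V4 or V6. With an additive removal of the length effect the changes were -0.41 (95% interval -0.86 to 0.04) and 0.26 (95% interval -0.21 to 0.73). BD6 was also the animal with the lowest endothelial and smooth muscle sums, and their part in its Nos3 value was not tested. The endothelial sums of BD1 (1271 FPKM) and BD5 (1242) lay within the range of the other animals. The smooth muscle sum was lower in bond-disrupted males, with a median of 689 FPKM against 932 in bonded and 794 in virgin males, and was 612 in BD1 and 789 in BD5. The part of smooth muscle in the Nos3 difference was not tested. Nos3 rests on 124 to 540 fragments per library. In 14 of 17 animals its fragment number was not whole, as happens where a fragment is shared between features, and in the RefSeq gene table the long non-coding RNA LOC128099271 (4.16 FPKM on average) lies within its span. Fragments of the pair may therefore have been divided between them, and the strand setting of the counting was not given in the sources used here.

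Nos2, the inducible form that is known for its rise in activated macrophages and epithelium, lay at 4.07, 5.57 and 10.5 FPKM as the lowest, median and highest of the bonded and at 2.74, 4.13 and 11.9 of the bond-disrupted males. The virgins had 3.95 (V2), 8.27 (V3), 6.06 (V4), 3.59 (V5) and 10.6 FPKM (V6). Each group held at least 1 animal near 10 FPKM or above (B2, BD2 and V6) and animals near 4 or below. This was the widest spread between animals among the 6 tested genes, a coefficient of variation of 47.4% against a counting error of at most 6.42%. The means were 6.20 ± 2.36, 5.16 ± 3.38 and 6.49 ± 2.96 FPKM, and the changes were -0.30 (SE 0.30), 0.02 (SE 0.31) and 0.33 (SE 0.31) in bond-disrupted against bonded, virgin against bonded and virgin against bond-disrupted males (limma adjusted p = 0.898, 1 and 0.951). Without BD2 the first was -0.54 (95% interval -1.07 to -0.01; limma adjusted p = 0.641) and the last 0.57 (95% interval 0.01 to 1.12; limma adjusted p = 0.6995). The change in bond-disrupted against bonded males was -0.16 without B2 and -0.18 without BD6, and that in virgin against bond-disrupted males was 0.15 without V6. BD2, the bond-disrupted male with the highest Nos2, had the lowest sum of macrophage markers of all animals (63.3 FPKM against up to 331).

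Nos1, the neuronal form, was near the limit of detection, with 4 to 36 fragments in a library and a counting error of 16.7 to 50% of the value. By group the fragments per 1000000 ran from 0.117 to 1.299 (median 0.414) in bonded and from 0.228 to 1.64 (median 0.517) in bond-disrupted males, and the virgins had 1.55, 0.401, 0.821, 0.527 and 1.02. It did not reach 1 FPKM in any animal and was therefore not among the genes tested. Fitted without that filter, it changed by 0.01 to 0.04 on the log2(FPKM + 1) scale (SE 0.04; limma adjusted p = 0.990 to 1), a scale on which a change of such low values hardly shows. In the count model (voom) its log2 change was 0.45 in bond-disrupted against bonded (95% interval -0.73 to 1.64; adjusted p = 0.936), 1.00 in virgin against bonded (95% interval -0.19 to 2.19; adjusted p = 1.00) and 0.54 in virgin against bond-disrupted males (95% interval -0.58 to 1.67; adjusted p = 0.959). The other neuronal markers that stood out in BD6 were not accompanied by Nos1, which was 0.526 fragments per 1000000 there.

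The ratio of Nos2 to Nos3 was 1.10 to 2.61 (median 1.28) in bonded and 0.966 to 2.99 (median 2.13) in bond-disrupted males and 1.55, 1.39, 1.57, 1.03 and 2.57 in the virgins. The ranges overlapped, and the log2 ratio was higher by 0.34 in bond-disrupted than in bonded males (exact permutation p = 0.297; adjusted over 6 ratio tests 0.593), and by 0.21 (without BD2) to 0.53 (without BD3) when single animals were left out.

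Ptgis, the enzyme that makes prostacyclin, ranged from 29.7 over a median of 44.1 to 71.4 FPKM in bonded and from 29.6 over 34.1 to 65.8 in bond-disrupted males. The virgins had 67.2 (V2), 43.6 (V3), 29.7 (V4), 48.7 (V5) and 38.8 FPKM (V6). The 3 groups shared nearly the same lowest and highest values. The means were 47.3 ± 15.6, 41.9 ± 14.5 and 45.6 ± 13.9 FPKM, and the largest change was -0.17 (SE 0.24; 95% interval -0.68 to 0.34; limma adjusted p = 0.946) in bond-disrupted against bonded males. Without single animals this value ran from -0.31 (without BD4) to -0.04 (without B6, the animal with the highest Ptgis and the highest sum of smooth muscle markers).

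**Figure D3:**
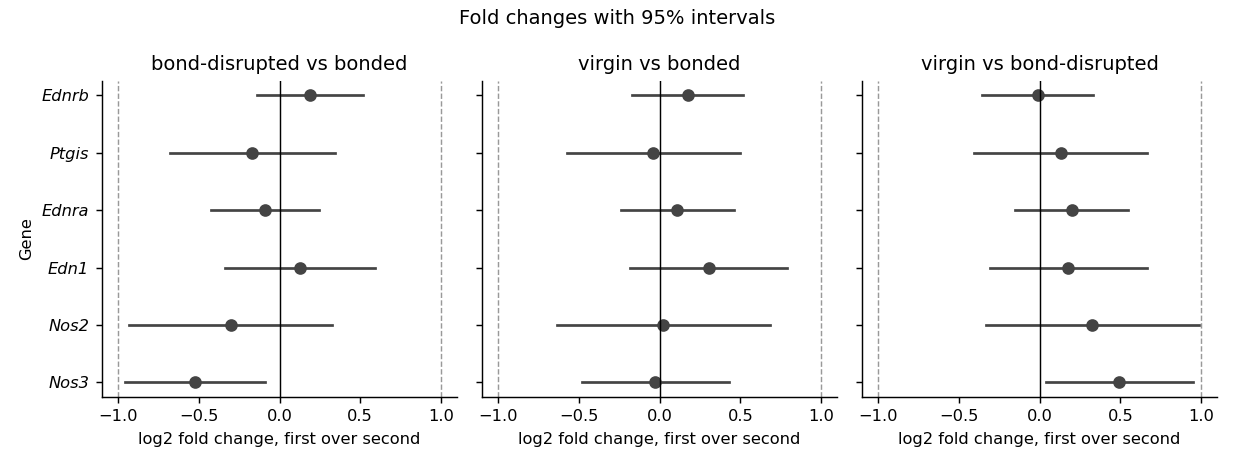
Change of 6 genes in log2(FPKM + 1) between groups (points, limma) with 95% intervals (lines), the solid line marking 0 and the dashed lines a 2-fold change. The intervals of Nos3 in bond-disrupted against bonded (-0.96 to -0.09) and in virgin against bond-disrupted males (0.04 to 0.95) are the only ones that leave out 0, and on this scale, which understates changes of low genes, no interval reaches a 2-fold change.

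On the log2(FPKM + 1) scale, with all animals in the fit, no interval of the 18 reached a 2-fold change. This does not hold for the low genes on a scale without the added 1: in the count model the intervals of Nos3 reached -1.29 in bond-disrupted against bonded and 1.27 in virgin against bond-disrupted males, and those of Nos2 reached -1.07 and 1.16. At a pseudocount of 0.1 the Nos3 interval reached -1.26 in bond-disrupted against bonded males. The intervals were narrowest for Ednrb and Ednra, whose bounds lay at most 0.52 and 0.55 from 0, and widest for Nos2, at 0.99. The differences between animals were far larger than the counting error: the coefficient of variation was 19.1% for Ednra, 19.5% for Ednrb, 31.2% for Ptgis, 34.0% for Edn1 and 36.3% for Nos3, while the counting error was at most 8.98% of any value of these genes. Their standard deviations exceeded those of 74.5% (Ednrb) to 93.1% (Ptgis) of genes of like level. The counting error leaves out any error in the solved lengths.

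With so little difference between groups, the variation was followed across animals, with group means subtracted. Of the 21 pairs among the 7 genes, 0 had a correlation with an adjusted p under 0.05. The highest was that of Ptgis and Ednra (n = 17, r = 0.70, rho = 0.70; permutation p = 0.00362 and 0.00337; adjusted over 21 pairs 0.0760 and 0.0708). It stood at 0.69 without B6 and V2, the animals farthest from the median of Ptgis, and at 0.84, 0.60 and 0.72 within bonded, bond-disrupted and virgin males. Nos2 and Nos3 followed (r = 0.61, rho = 0.57; permutation p = 0.0151 and 0.0244; adjusted 0.158 and 0.256), and stood at 0.54 without BD2 and V6 and at 0.40, 0.66 and 0.70 within the groups in the same order. The receptors Ednra and Ednrb had r = 0.42 (permutation p = 0.104; adjusted 0.437), which ran from 0.24 (without V4) to 0.52 without single animals and was -0.20, 0.48 and 0.87 within bonded, bond-disrupted and virgin males. The ligand had r = -0.06 with Ednra and -0.10 with Ednrb, and both values rest on few animals. With Ednra, r was 0.48 without BD4 and V4, ran from -0.28 to 0.63 without single animals, and was 0.38, 0.79 and -0.82 within the groups. With Ednrb, r was 0.07 without BD4 and V4, ran from -0.24 to 0.21 without single animals, and was -0.59, 0.56 and -0.86 within the groups.

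The genes were also set beside the summed endothelial and smooth muscle markers, 12 relations in all. Ednrb rose and fell with the endothelial sum (n = 17, r = 0.88, rho = 0.72; permutation p = 6e-05 and 0.00464; adjusted over 12 relations 0.00072 and 0.0557), and r was 0.83 without BD2 and BD6 and 0.83 to 0.92 without any single animal. It was the only one of the 12 relations with an adjusted p of r under 0.05. Nos3, itself an endothelial gene, had r = 0.03 with the same sum (rho = -0.13; permutation p = 0.929), -0.29 without BD1 and BD6, and -0.35 (without BD6) to 0.12 (without B6) when single animals were left out. Its r with the smooth muscle sum was 0.53 (rho = 0.53; permutation p = 0.0493; adjusted 0.197), and that of Nos2 was 0.55 (rho = 0.55; permutation p = 0.0472; adjusted 0.197), which fell to 0.37 for Nos3 without BD1 and BD6 and to 0.33 for Nos2 without BD2 and V6. Edn1 had r = -0.14 with the endothelial sum, which ran from -0.32 (without BD6) to 0.11 (without V4), and r = 0.45 with the smooth muscle sum (rho = 0.50; permutation p = 0.0726; adjusted 0.218). These relations were chosen after the values had been seen, and all animals share the depth and tissue make-up of their library in both measures.

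**Figure D4:**
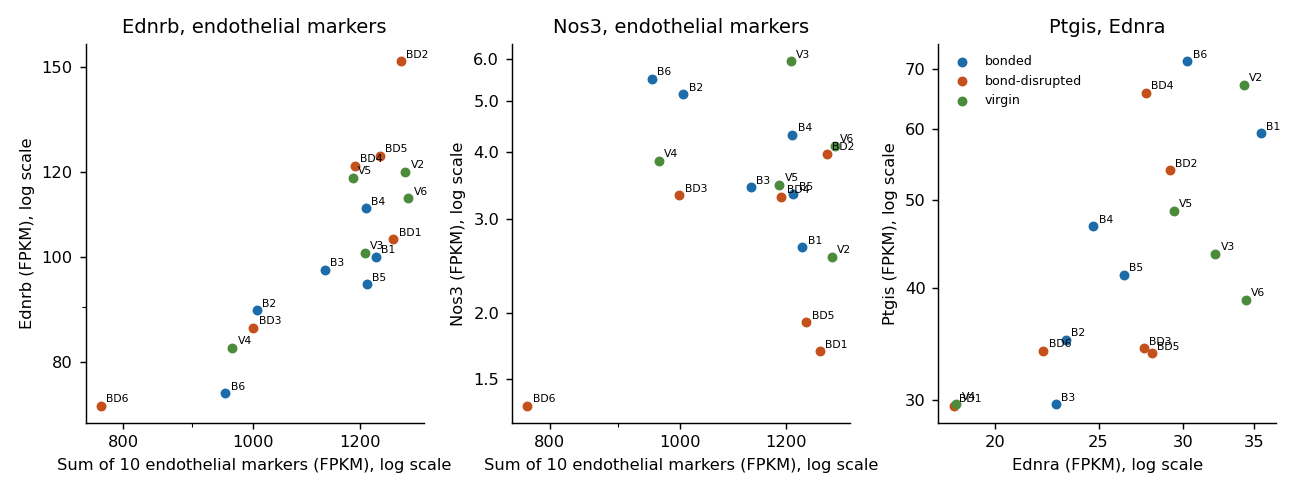
Ednrb and Nos3 against the sum of 10 endothelial markers, and Ptgis against Ednra, in FPKM by own length on log axes, with a labelled point per animal coloured by group. Ednrb follows the endothelial sum from BD6, lowest in both, to BD2 (r = 0.88 with group means subtracted), Nos3 does not (r = 0.03), and Ptgis and Ednra lie in between (r = 0.70).

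The genes whose levels were most like those of each member across the 17 animals, by Pearson r of log2(FPKM + 1) with group means subtracted, differed from member to member. Ednrb was most like Adam15 (r = 0.92), Tek (0.91), the angiopoietin receptor of endothelium and 1 of the endothelial markers, and Dock6 (0.90). Ednra was most like Nf2 (0.94), Eea1 (0.92) and Camkk2 (0.92), and Ptgis like Abcc9 (0.87), a subunit of potassium channels of vascular smooth muscle and pericytes, Atp8b1 (0.85) and Mpdz (0.85). Nos2 was most like Crybg2 (0.93), Arhgef4 (0.92) and Maml2 (0.91), and Nos3 like Rtl5 (0.84), LOC128113647 (0.83) and Efcab12 (0.81). Edn1 was most like LOC128124991 (0.84), the clock repressor Cry1 (0.83) and the early-response gene Btg2 (0.80), all of which, like Edn1, were highest in V4. Without V4 the r of Cry1 was 0.72 and that of Btg2 was 0.71. Among the 13719 to 13731 genes compared, those with r of at least 0.7 numbered 341 for Ednra, 259 for Ednrb, 254 for Nos2, 105 for Ptgis, 40 for Nos3 and 14 for Edn1. The named genes are the highest of all those compared. How many unrelated genes would reach such values was not tested.

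The partners of these genes were read from lists of 89 genes of the endothelin, nitric oxide and cGMP, prostanoid, renin-angiotensin and kinin, and adrenomedullin and VIP systems. Of these, 79 had a row and 64 were tested. The rest either stayed below 1 FPKM in every animal or, like Ptgs1 and Ptgir, lacked a settled length for some value. None of the 64 was called in any comparison, and 1, 3 and 2 had an unadjusted p under 0.05 in bond-disrupted against bonded, virgin against bonded and virgin against bond-disrupted males. This is 1.56%, 4.69% and 3.12% of the 64, beside 5.9%, 3.81% and 4.36% of all genes. The median change over the 64 was 0.03, 0.03 and -0.00, against 0.00, 0.01 and 0.00 over all genes. Medians of single lists could lie farther from 0: over the 10 renin-angiotensin and kinin genes they were 0.20, -0.02 and -0.14. The lists were not tested as sets. In the endothelin system the endothelin-converting enzyme Ece1 averaged 250.1 FPKM, above Ednrb, and Edn3 4.76, while Edn2 averaged 0.380. In the nitric oxide system the soluble guanylate cyclase subunits Gucy1b1 (41.3 FPKM) and Gucy1a1 (28.7) and the cGMP phosphodiesterase Pde5a (49.4) all exceeded Nos3. In the prostanoid system Hpgd, which degrades prostaglandins, averaged 299 FPKM, and Ptgs2, the inducible cyclooxygenase, 0.592.

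Among the partners averaging at least 1 FPKM, the one with the largest change in virgin against bonded males was Hpgds, which makes prostaglandin D2, with 5.27 ± 2.02 against 8.72 ± 3.54 FPKM (log2 change -0.61, SE 0.36; limma adjusted p = 1). In virgin against bond-disrupted males it was Enpep, the aminopeptidase that trims angiotensin II, with 4.76 ± 5.53 against 6.95 ± 4.08 FPKM (log2 change -0.83, SE 0.64; limma adjusted p = 0.951). As deposited, 1 partner was called, the prostaglandin E synthase Ptges3 in virgin against bonded males, with a log2 change of -2.21 (SE 0.49; limma adjusted p = 0.0735), which was -0.09 (SE 0.09; limma adjusted p = 1) by its own length.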

How the data were processed

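The authors sequenced stranded total-RNA libraries of 17 lungs and deposited FPKM for 27786 genes in 17 columns, with 0 columns unassigned. The submitters' processing notes name Trim Galore 0.4.5, STAR 2.7.2, SAMtools 1.5 and featureCounts (Subread 1.5.3). The genome build and the counting options were not given in the sources used here. Gene names match RefSeq ASM782708v3.

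Because column j had been divided by the length of the gene j rows above, depths and lengths had to be solved. Library depths came first, from the values of small-RNA genes at their RefSeq lengths. Gene lengths were then solved such that FPKM × length × depth gave whole or evenly shared fragments. Of 27787 lengths, 26565 were solved, 72 were estimated and 1150 stayed unsettled. All divisor lengths of the 7 genes were solved, at 0.882 to 1.241 times (median 1.006) the lengths predicted from other genes. Fragments of Ptgis were not whole in 5 animals, though no gene overlapped it in RefSeq. Of 1500 solved small-RNA lengths, 98.4% equalled the RefSeq length. The RefSeq lengths of small-RNA genes had set the depths, so this check and the next are not independent of them. Of 19843 small-RNA values, 82.0% were whole, 16.4% in steps of 0.5 and 0.771% in steps of 1/3, within 0.01 fragments. The recovered fragments summed to 97.4% to 104% of the solved depth. The 24766 genes with all values recovered were divided by their own length.

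limma 3.58.1 (R 4.3.3) was fitted to log2(FPKM + 1) with the 3 groups together, for 15437 genes of at least 1 FPKM in at least 1 animal, two-sided. This scale understates changes of low genes. Ratios used exact permutation tests and correlations 100000 permutations within groups (Python 3.11.15, numpy 2.4.6, scipy 1.17.1, pandas 2.3.3, numba 0.67.0, matplotlib 3.10.9). The steps were run on simulated data with whole fragments only and the depth unit known. The handling of shared fragments and the choice of depth unit were therefore not tested.

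By the colour code of the paper's clustering plot, animals of the same number are siblings, or cousins for V3 (also named in its text) and V4 (read from the plot alone). Of 16 same-numbered pairs, 7 had deviations from the group means that correlated over 0.1 (r -0.36 to 0.42, mean 0.0532): 6 of 6 pairs of bonded and bond-disrupted animals (r 0.11 to 0.42), 1 of 5 of virgin and bonded and 0 of 5 of virgin and bond-disrupted animals. The design took the animals as unrelated, with the number as a block as an alternative and, added after the values were seen, a sign-flip permutation over the 6 sibling pairs.

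Members and gene lists were chosen with earlier results of these data known. Named are all members, list genes that were called or had the largest change per comparison, the 3 genes most like each member (more than 20 rows away, at least 1 FPKM on average), and the top gene of each marker list used; the levels of other partners were chosen after their values were seen. The list gene so named for bond-disrupted against bonded males is not reported here.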

Additional observations from a re-analysis of the deposited data

Results flagged for a closer look

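In 3 of 21 sets of values, a gene within a group, the highest animal stood apart from the rest by Dixon's test, which flags about 1 set in 20 by chance. Among the bond-disrupted males BD2 had 11.9 FPKM of Nos2, with the next animal at 4.86, and 0.159 FPKM of Nos1, with the next at 0.0688, the latter from 36 fragments. The same animal had the highest Ednrb of the 17, the lowest macrophage and erythroid marker sums, and the highest level of Crybg2, Adam15, Tek and Dock6. Among the virgins V4 had 27.9 FPKM of Edn1, with the next at 15.1, from 1518 fragments. It was also the virgin with the lowest Ednra (18.4 FPKM), Ednrb (82.5) and Ptgis (29.7), and the animal with the highest Cry1 and Btg2 of the 17.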

How the results depend on the processing

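No member was called under any alternative. With the lengths left as deposited, 40, 113 and 35 genes were called in bond-disrupted against bonded, virgin against bonded and virgin against bond-disrupted males, and 1 list gene in virgin against bonded males. In virgin against bonded males the count of called genes, 0 as reported, was 2 without the fold minimum, 1 at a pseudocount of 0.1, 2 at 0.01 and 2 with voom. The family number as a replicate block gave 0, 1 and 0 called genes and changed no call of a member, though the Nos3 interval in virgin against bond-disrupted males then held 0. Without single animals the counts ran from 0 to 1 in bond-disrupted against bonded (1 without B4) and from 0 to 1 in virgin against bonded males (1 without B4, B6 or V4). As deposited the signs turned in bond-disrupted against bonded males for Nos2 (0.26), Nos3 (0.21), Edn1 (-0.39), Ednra (0.17) and Ednrb (-0.21), in virgin against bonded males for Nos2 (-0.0077) and Nos3 (0.35), in virgin against bond-disrupted males for Nos2 (-0.27) and Ednrb (3.05), and for r of Ptgis and Ednra (-0.0844). Additive removal of the length effect turned Edn1 (-0.0298) and Ednrb (0.10) in virgin against bond-disrupted males, moved virgin against bonded to 0.14 for Nos2, -0.14 for Nos3 and 0.08 for Edn1 and bond-disrupted against bonded to 0.08 for Ednrb, and quantile normalization turned Ednrb in virgin against bond-disrupted males (0.0543). Without single animals, virgin against bonded ran from -0.16 to 0.18 for Nos2, from -0.16 to 0.0865 for Nos3, from -0.19 to 0.10 for Ptgis, from -0.0356 to 0.14 for the ratio of Ednrb to Ednra and from -0.13 to 0.22 for that of Nos2 to Nos3. Virgin against bond-disrupted ran from -0.0194 to 0.27 for Ptgis, from -0.0377 to 0.31 for Edn1 and from -0.12 to 0.0885 for Ednrb. The count of correlated pairs, 0 as reported, was 1 with group means kept (Ptgis and Ednra, r = 0.70, permutation p adjusted 0.0466) and 0 to 1 without single animals (1 without V6, r = 0.76, permutation p adjusted 0.0338). The cause of these changes was not tested, except that the deposited values differ by their construction. Nos1 had the fewest fragments (4 to 36 per library) and Nos3 the next (124 to 540), and the effect of depth was not tested.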

Other observations

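In BD6 genes of neurons were high as a set. Tubb3 was 11.03 FPKM there against at most 0.767 in the other 16 animals, Elavl4 4.09 against at most 0.0382, Prph, a gene of peripheral neurons, 6.81 against at most 1.33, and Uchl1 14.0 against at most 3.16. Rbfox3, a marker of mature neurons, was low at 0.118 FPKM there, against at most 0.0459 in the other animals. These genes belong to a list of 7 neuronal markers and were named after their values were seen.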
